A study of Homo sapiens with 6 samples.

Results

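The S100 and annexin genes encode 2 families of calcium-binding proteins, and the 30 of 20503 genes of the deposited table that belong to them by symbol are described here across T47D-TR and T47D cells. The members were taken by name alone. They comprise 15 genes of the S100 side, which are 14 S100 genes and S100PBP, whose product binds S100P. The other 15 are 11 numbered annexin genes, the annexin copy ANXA8L1, ANXA2R, which encodes a proposed receptor for annexin A2, and the pseudogenes ANXA2P1 and ANXA2P2. A RefSeq table for GRCh38.p14 lists 37 genes that match the naming rule, and the other 7 (ANXA13, ANXA2P3, S100A12, S100A7, S100B, S100G and S100Z) were not analysed here.

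S100 proteins are small dimers with a pair of EF hands, the helix-loop-helix motif that holds calcium, and on binding calcium they expose a surface that grips target proteins. Annexins bind acidic membrane phospholipids when calcium rises and take part in membrane trafficking, repair and anchoring of the actin cortex. The families meet in fixed complexes: S100A10, which has lost the ability to bind calcium, joins ANXA2 at the plasma membrane, S100A11 binds ANXA1, and S100A6 binds several annexins including ANXA11. Several S100 genes, among them S100A4 and S100P, are widely studied in breast carcinoma in connection with motility and drug response.

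Poly(A)-selected RNA was sequenced from T47D-TR, a tamoxifen-resistant subline of T47D grown with 1 µM of 4-hydroxytamoxifen (an active form of the drug), and from T47D, a breast cancer line labelled ER-positive, with 3 libraries each. Both grew in DMEM with 10% fetal bovine serum. The labels give the drug for every T47D-TR library and for no T47D library, so resistance and exposure to the drug cannot be told apart. The labels do not say how the subline was selected or whether it is a single clone. They also do not tie the libraries to separate cultures, so each p-value reflects the spread among these samples alone, and that spread may be technical.

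The libraries held 17199315 to 19867230 counts in T47D-TR and 18315735 to 19305594 in T47D. T47D-TR replicate 3 stood apart: its counts differed from those of T47D-TR replicates 1 and 2 with chi-square values of 8.36 and 9.58 a gene, where replicates 1 and 2 gave 2.79 between them and the T47D pairs 1.83 to 2.24. No pair agreed within sampling noise. That replicate also held reads of some fibroblast and some keratinocyte markers that the other libraries all but lacked. Among fibroblast markers, COL1A2 had 0, 0 and 22 counts, COL3A1 3, 1 and 37 and DCN 4, 0 and 19 in T47D-TR libraries, while the T47D libraries held 0 counts of each except 1 count of COL3A1 in replicate 3. Among keratinocyte markers, KRT6A had 0, 0 and 17 counts and KRT14 had 2, 1 and 15 in T47D-TR libraries, against 0 in each T47D library for both. Not every marker followed: COL1A1 had 342, 319 and 310 counts in T47D-TR libraries and 315, 366 and 351 in T47D libraries, and LUM, the lumican gene, had 6, 3 and 5 in T47D-TR and 269, 232 and 286 in T47D. Among the keratinocyte markers, reads of TP63 lay in each T47D-TR library, as given below. The summed level of that list was 27.8 to 33.04 CPM in T47D-TR and 18.4 to 22.9 CPM in T47D. The summed level of the 8 of 10 fibroblast markers analysed here was 20.4 to 26.9 CPM in T47D-TR and 36.6 to 39.97 CPM in T47D. Several results in which replicate 3 lay apart are given below with and without it.

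The label was checked against markers: ESR1, the oestrogen receptor gene, had 2, 4 and 3 counts in T47D-TR libraries and 3, 0 and 2 in T47D libraries, at the limit of detection in both. CDH1, which encodes E-cadherin, stood at 5.50 ± 2.40 CPM in T47D-TR and 2.12 ± 0.742 CPM in T47D (CPM, counts scaled to a common library size; SD, n = 3). The mesenchymal filament gene VIM stood at 1297 ± 22.4 CPM in T47D-TR and 769.7 ± 10.9 CPM in T47D. KRT8, a luminal keratin gene, was high in both, at 1580 ± 120.3 CPM in T47D-TR and 1338 ± 26.0 CPM in T47D. The ESR1 counts go against the ER-positive label, and the labels' names are used below only as names. In bulk RNA, a change in the number of cells of a kind and a change in RNA per cell cannot be told apart.

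Most S100 genes were more abundant in T47D-TR, while the annexins divided into a few large rises, many small ones and 2 falls. Of the 28 members that passed the filter on low counts, 20 rose, 2 fell and 6 were not called (edgeR quasi-likelihood test, Benjamini-Hochberg adjusted p under 0.05 over all 15961 tested genes). Of all tested genes 63.0% were called, 32.5% as higher and 30.5% as lower. S100A9, S100A5 and ANXA2R met the filter only through their T47D-TR libraries. Of the 24 members above the count minimum (10 at the median library size) in all 6 libraries, 18 rose, 2 fell and 4 were not called, where 32.5% of all 14352 such genes rose and 31.5% fell. Their median log2 fold change was 0.52, against -0.00 for all such genes. On the S100 side 10 of 11 such members rose and 0 fell (median 0.87; 0 fell at an unadjusted edgeR p under 0.05, 0 with DESeq2, and S100A2 was called lower with limma's voom and quantile normalization), and among the annexins 8 of 13 rose and 2 fell (median 0.25). At 1.5-fold or more, 11 of the 24 rose and 1 fell, where 2319 of the 14352 such genes rose and 1289 fell that far. With the members that met the filter only through T47D-TR, 13 of the 28 tested members rose and 1 fell at 1.5-fold or more. Of all tested genes 17.8% rose and 10.2% fell that far. The 3 libraries of T47D-TR lay wholly above those of T47D for 18 of the 24 and wholly below for 2, where this held for 34.7% and 34.8% of all genes past the same minimum (69.5% either way). The groups did not overlap for 22 of the 28 tested members and for 68.3% of all tested genes. By the authors' deposited table, 20 of the 30 members had a false discovery rate under 0.05, against 44.4% of all its genes. Without T47D-TR replicate 3, 20 of the tested members were called higher and 3 lower.

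**Figure D1:**
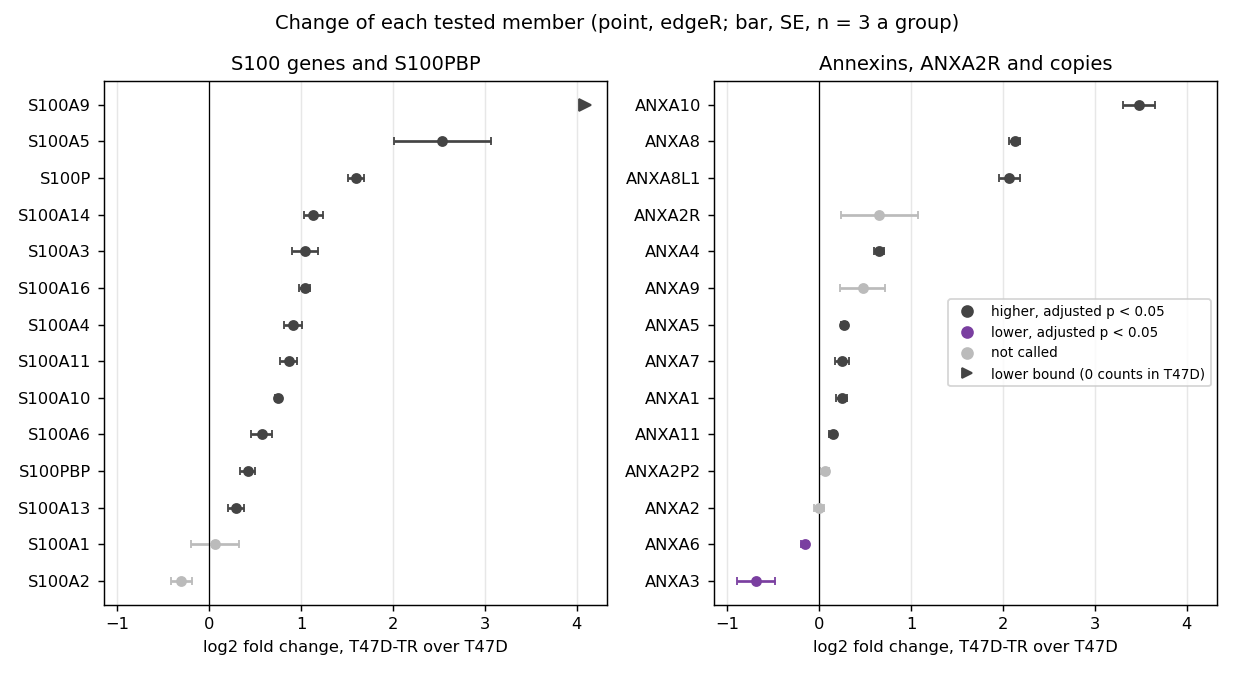
Log2 fold change of T47D-TR over T47D for each of the 28 tested members (points, edgeR; bars, SE, n = 3 a group), with S100 genes on the left and annexins on the right. S100A2 is the S100 gene with the lowest value, at -0.30, and ANXA10 leads the annexins at 3.48, while S100A9 is drawn at its lower bound.

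The 5 most abundant S100 genes all rose by 1.49- to 2.05-fold. S100A11, the partner of ANXA1 (chromosome 1, 152032506 to 152037004, GRCh38), had 362, 357 and 433 CPM in T47D-TR libraries, against 206, 216 and 210.0 CPM in T47D libraries. The highest T47D value lay far below the lowest T47D-TR value, and the log2 fold change was 0.87 ± 0.09 (SE; edgeR adjusted p = 2.11e-07). S100A16, a member expressed in many epithelia (chromosome 1, 153606883 to 153613137), had 264, 255 and 292 CPM in T47D-TR and 135, 130.3 and 129 CPM in T47D. It rose by 1.04 ± 0.06 on the log2 scale (edgeR adjusted p = 8.91e-09). S100A6, also called calcyclin, had 228, 224 and 282 CPM in T47D-TR and 157, 173 and 165 CPM in T47D, and S100A4, which binds non-muscle myosin, had 158, 170.2 and 199 CPM in T47D-TR and 92.7, 96.3 and 91.0 CPM in T47D. In S100A11, S100A16, S100A6 and S100A4 alike, T47D-TR replicate 3 was the highest library. It is the library with the fibroblast and keratinocyte reads given above, and whether the 2 are linked was not tested. Without that replicate the log2 fold change was 0.77 for S100A11, 0.98 for S100A16, 0.46 for S100A6 and 0.81 for S100A4, against 0.87, 1.04, 0.57 and 0.91 with it, and each was still called by edgeR. S100A10, the light chain of the annexin A2 complex (chromosome 1, 151982915 to 151993859), was the most even of the 5, with 207, 211 and 220 CPM in T47D-TR and 127, 125 and 128 CPM in T47D (log2 0.75 ± 0.03, edgeR adjusted p = 2.09e-08).

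S100P, first described in placenta and located apart from the other S100 genes (chromosome 4, 6693878 to 6697170), rose 3.03-fold. Its libraries held 49.5, 52.8 and 48.6 CPM in T47D-TR and 18.4, 15.96 and 15.4 CPM in T47D (log2 1.600 ± 0.09, edgeR adjusted p = 3.96e-09). S100PBP, which encodes the nuclear S100P-binding protein (chromosome 1, 32816562 to 32858879), rose less, with 34.0 ± 2.13 CPM in T47D-TR and 25.5 ± 1.81 CPM in T47D. Among the S100 genes of middle and low level, S100A14 had 8.71 ± 0.484 CPM in T47D-TR and 3.96 ± 0.444 CPM in T47D, and S100A3, known from the hair cuticle, had 10.6 ± 1.58 CPM in T47D-TR and 5.13 ± 0.478 CPM in T47D. Both rose about 1 log2 unit (1.13 and 1.04). S100A3 lies wholly within LOC101928034, a gene of the table that moved by 0.85, and without a stated strand setting their reads cannot be told apart. S100A13, which aids the export of proteins that lack a signal peptide, rose by 0.29 (31.4 ± 3.29 CPM in T47D-TR and 25.7 ± 0.648 CPM in T47D, edgeR adjusted p = 0.00696). Without T47D-TR replicate 3 the S100A13 value was 0.20. S100A1, a heart and muscle S100 gene that lies within S100A13 on the opposite strand, had 9, 17 and 14 counts in T47D-TR and 11, 15 and 13 in T47D. S100A2, an epithelial member linked to p53, was the S100 gene with the lowest fold change, with 82, 79 and 82 counts in T47D-TR and 89, 109 and 108 in T47D (log2 -0.30 ± 0.11, edgeR adjusted p = 0.0835). Without T47D-TR replicate 3 it was called lower (-0.38, edgeR adjusted p = 0.0363).

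**Figure D2:**
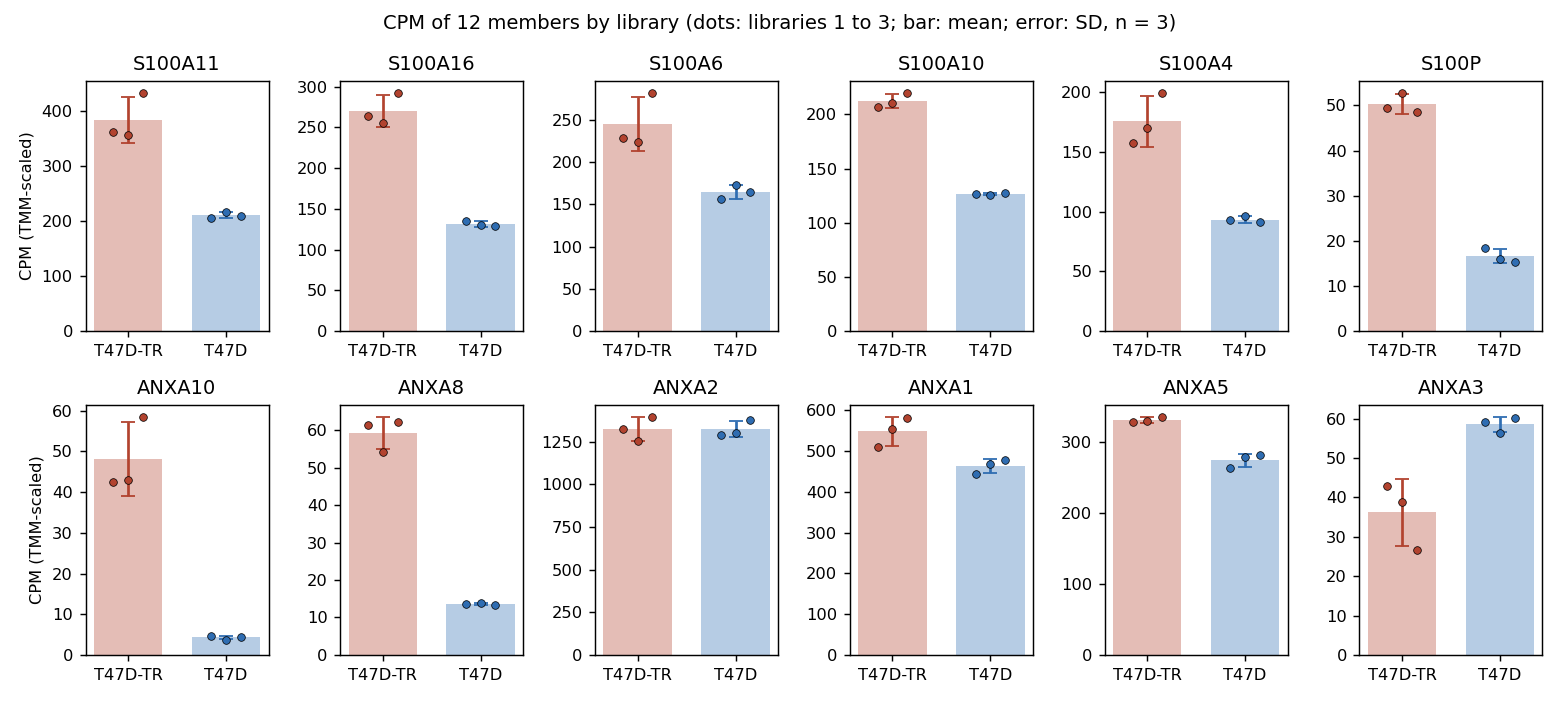
CPM of 12 members in each library, T47D-TR left of T47D, with dots for libraries, bars for means and error bars for SD (n = 3). The groups are apart in each panel except that of ANXA2, which averaged 1325 CPM in T47D-TR and 1323 CPM in T47D.

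S100A9 and S100A8 encode the subunits of calprotectin, the abundant cytosolic protein of neutrophils and monocytes. S100A9 had 18, 17 and 15 counts in the T47D-TR libraries and 0, 0 and 0 in the T47D libraries, under 1 CPM throughout. Against a floor of 3 counts over the T47D group, 0.0528 CPM, it was at least 16.97-fold higher in T47D-TR. S100A8 had 0, 0 and 4 counts in T47D-TR, all in replicate 3, the library that also held the KRT6A and KRT14 reads, and 0 in each T47D library, too few for a test. Of 15 myeloid markers 8 were analysed here. The pan-leukocyte gene PTPRC had 1, 0 and 1 counts in T47D-TR and 2, 2 and 2 in T47D, and the monocyte gene CD14 had 6, 9 and 5 in T47D-TR and 13, 6 and 10 in T47D. The summed level of the list was 63.5 to 80.0 CPM in T47D-TR and 27.3 to 30.8 CPM in T47D, most of it from the lysosomal gene CD68. Of 14 keratinocyte markers 8 were analysed here, with sums of 27.8 to 33.04 CPM in T47D-TR and 18.4 to 22.9 CPM in T47D, most of it from KRT10. In that list TP63 had 55 counts in T47D-TR and 3 in T47D over all libraries, a ratio of 18.7 (95% exact interval 6.06 to 93.3, counting error only), and the counts were spread over the T47D-TR libraries as 12, 21 and 22. S100A9 had 15 to 18 counts in each T47D-TR library, while the KRT6A and KRT14 reads lay mainly in replicate 3 and the TP63 reads in each. The part of any marker of either list in the S100A9 level or the S100A8 counts was not tested. S100A5 had 11, 15 and 10 counts in T47D-TR and 1, 5 and 0 in T47D (log2 2.54 ± 0.53, edgeR adjusted p = 0.00374). Its size rests on few reads: the value was 4.27 without T47D replicate 2 and 1.99 without T47D replicate 3, and the gene shares 65 bases with S100A4.

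The 100 bases before the RefSeq start of S100A9 and the 100 bases nearest to that of ANXA10 outside annotated exons are shown because S100A9 and ANXA10 had the largest fitted rise in their families. They come from RefSeq's GRCh38.p14, S100A9 from chr1:153357754-153357853 on the + strand and ANXA10 from chr4:168092415-168092514 on the + strand, 5′ to 3′, with the TATA box letters TATAAA in capitals.
S100A9: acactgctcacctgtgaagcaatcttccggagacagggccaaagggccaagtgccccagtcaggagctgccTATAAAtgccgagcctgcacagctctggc
ANXA10: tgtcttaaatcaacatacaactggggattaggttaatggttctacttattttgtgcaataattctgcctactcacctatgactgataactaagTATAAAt
The TATA box began 29 bases before the start in both. Promoter entries were found for 27 members, 41 entries in all, and the 250 bases before each start were searched on both strands. TATAAA was found in 24.4% of these entries and in 10.7% of all 35116 entries. The members that held it were S100A4, S100A8, S100A9, S100A13, S100P, ANXA1, ANXA2, ANXA10 and ANXA11, which include genes called higher, not called and not tested. The AP-1 motif TGANTCA was found in 12.2% of member entries and 6.57% of all, and the GC box GGGCGG in 39.0% of member entries and 42.6% of all. The full palindromic oestrogen response element was found in 0 member entries and in 14 of all entries. A match describes letters in a window only.

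Among the annexins ANXA10 rose most. ANXA10 (chromosome 4, 168092537 to 168187736), an annexin of stomach and urothelium with degenerate calcium sites, had 42.6, 43.1 and 58.6 CPM in T47D-TR libraries and 4.63, 3.78 and 4.45 CPM in T47D libraries. The lowest T47D-TR library lay far above every T47D library (log2 3.48 ± 0.17, 11.2-fold, edgeR adjusted p = 1.08e-09). Replicate 3 was again the highest of T47D-TR, and without it the log2 fold change was 3.32. ANXA8, an annexin of stratified and basal epithelium, had 61.3, 54.3 and 62.2 CPM in T47D-TR and 13.5, 13.8 and 13.4 CPM in T47D (log2 2.13 ± 0.06, edgeR adjusted p = 2.16e-10). Its copy ANXA8L1 had 25.4, 20.9 and 25.6 CPM in T47D-TR and 5.49, 5.37 and 6.22 CPM in T47D (log2 2.07 ± 0.12, edgeR adjusted p = 1.15e-08). The coding sequences of the copies (GENCODE 29, both on chromosome 10) differ at 5 of 1095 bases, so how reads were divided between them is uncertain. The stretch of 120 bases with most differences, bases 584 to 703 of each coding sequence, is printed with differing bases in capitals.
ANXA8L1: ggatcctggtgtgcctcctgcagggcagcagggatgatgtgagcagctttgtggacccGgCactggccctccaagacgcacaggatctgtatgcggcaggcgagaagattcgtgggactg
ANXA8: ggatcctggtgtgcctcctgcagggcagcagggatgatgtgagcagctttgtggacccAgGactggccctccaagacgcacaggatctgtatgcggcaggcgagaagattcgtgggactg
Of windows of 100 bases in ANXA8L1, 73.8% were identical to an ANXA8 transcript, and of windows of 150 bases 61.8%. The labels do not give the read length. The sum of both genes, which does not depend on that division, was 1673, 1473 and 1482 counts in T47D-TR and 352, 375 and 366 in T47D, a 4.32-fold difference in mean CPM. The ratio of ANXA8L1 to ANXA8 counts was 0.403 ± 0.0165 in T47D-TR and 0.420 ± 0.0390 in T47D (SD, n = 3), with overlapping groups.

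The abundant annexins moved little. ANXA2, the most abundant member (chromosome 15, 60347151 to 60397986), had 1324, 1255 and 1397 CPM in T47D-TR and 1287, 1303 and 1377 CPM in T47D. The groups overlapped and the log2 fold change was 0.00 ± 0.05 (edgeR adjusted p = 0.963), with either sign under other scalings. With voom and quantile normalization, which lowered the fold change of the median tested gene by 0.11, it was called at 0.10 (limma adjusted p = 0.0322). ANXA1, an anti-inflammatory phospholipase inhibitor induced by glucocorticoids, had 511, 553 and 582 CPM in T47D-TR and 444, 469 and 477 CPM in T47D. ANXA5, used as a probe of exposed phosphatidylserine, had 332 ± 4.07 CPM in T47D-TR and 275 ± 9.22 CPM in T47D, and ANXA7, also called synexin, had 130.3 ± 12.3 CPM in T47D-TR and 109.6 ± 1.87 CPM in T47D. ANXA1, ANXA5 and ANXA7 rose by 0.24, 0.27 and 0.25 on the log2 scale (edgeR adjusted p = 0.000988, 8.93e-05 and 0.0037). Without T47D-TR replicate 3 these values were 0.20, 0.26 and 0.17. ANXA11, which links RNA granules to lysosomes, rose by 0.15 (151 ± 6.28 CPM in T47D-TR and 137 ± 0.146 CPM in T47D, edgeR adjusted p = 0.014). That call ended without T47D replicate 2 (edgeR adjusted p = 0.0586) and with library size alone (edgeR adjusted p = 0.0507). ANXA4, an annexin of secretory epithelia, rose further, with 22.0 ± 1.43 CPM in T47D-TR and 14.0 ± 0.112 CPM in T47D (log2 0.65 ± 0.05, edgeR adjusted p = 1.53e-05).

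ANXA3 and ANXA6 were the members that fell. ANXA3 (chromosome 4, 78551770 to 78610447), an annexin of neutrophils and several carcinomas, had 42.9, 39.0 and 26.7 CPM in T47D-TR and 59.3, 56.4 and 60.1 CPM in T47D. All T47D-TR libraries lay below all T47D libraries, replicate 3 the furthest, with a log2 fold change of -0.69 ± 0.21 (edgeR adjusted p = 0.000351) and of -0.52 without that replicate. ANXA6, which carries a duplicated annexin core, had 82.8 ± 3.57 CPM in T47D-TR and 92.2 ± 1.27 CPM in T47D (log2 -0.16 ± 0.04, edgeR adjusted p = 0.0153). That small difference was no longer called without T47D-TR replicate 2 (edgeR adjusted p = 0.056) or T47D replicate 1 (edgeR adjusted p = 0.0563). ANXA9, an annexin with weak calcium binding, had 55, 54 and 70 counts in T47D-TR and 34, 54 and 44 in T47D (edgeR adjusted p = 0.0802), and ANXA2R had 16, 27 and 13 in T47D-TR and 10, 19 and 7 in T47D (edgeR adjusted p = 0.158). Without T47D replicate 2, ANXA2R was called higher (log2 1.11, edgeR adjusted p = 0.0481). Neither passed the threshold with all libraries, and their groups overlapped.

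The pseudogenes gave reads at very different levels. ANXA2P2, an intronless copy of ANXA2 on chromosome 9 (33624225 to 33625534), had 79.5, 75.2 and 79.6 CPM in T47D-TR and 74.7, 71.7 and 78.4 CPM in T47D, with overlapping groups (log2 0.06 ± 0.05, edgeR adjusted p = 0.342). ANXA2P1, a second copy on chromosome 4, had 2, 8 and 9 counts in T47D-TR and 6, 5 and 5 in T47D and did not pass the filter. The ANXA2P2 transcript differs from the ANXA2 coding sequence at 16 of 1017 aligned bases (98.4% identity), and ANXA2P1 at 57 of 926 (93.8% identity). The 120-base stretch of ANXA2P2 with most differences, 5 in all, spans its bases 177 to 296 and bases 231 to 350 of the longest ANXA2 coding sequence, with differing bases in capitals.
ANXA2P2: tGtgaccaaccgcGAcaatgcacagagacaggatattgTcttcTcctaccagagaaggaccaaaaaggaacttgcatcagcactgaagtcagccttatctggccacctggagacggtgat
ANXA2: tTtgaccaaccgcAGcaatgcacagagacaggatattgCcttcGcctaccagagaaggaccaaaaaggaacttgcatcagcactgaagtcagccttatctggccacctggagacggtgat
Of windows of 100 bases in ANXA2P2, 31.2% were identical to an ANXA2 transcript, and none were in ANXA2P1 (0 of 827). The ratio of ANXA2P2 to ANXA2 counts was 0.0600, 0.0599 and 0.0570 in T47D-TR and 0.0580, 0.0550 and 0.0569 in T47D. The sum of the pair was 1403 ± 73.0 CPM in T47D-TR and 1398 ± 50.7 CPM in T47D. Whether the ANXA2P2 reads are transcripts of the pseudogene or misplaced reads of its parent was not tested.

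Taken as a family, S100 genes filled 0.134%, 0.134% and 0.154% of the counts in T47D-TR libraries, against 0.0813%, 0.0834% and 0.0811% in T47D libraries. The groups did not overlap, and the mean share was 1.72 times higher in T47D-TR (exact 2-sided permutation p = 0.1, the smallest that 3 against 3 libraries can give). Annexin genes filled 0.277%, 0.271% and 0.293% in T47D-TR and 0.255%, 0.259% and 0.268% in T47D, a ratio of 1.08 with no overlap (exact permutation p = 0.1). ANXA2 alone made up 46.6 ± 0.842% of the annexin counts in T47D-TR and 51.4 ± 0.451% in T47D. Within the S100 counts S100A11 held 26.8 ± 0.656% in T47D-TR and 26.0 ± 0.270% in T47D, while S100A6 held 17.1 ± 0.765% in T47D-TR and 20.3 ± 0.743% in T47D. Mitochondrially encoded genes took 10.3 ± 0.196% of counts in T47D-TR and 6.40 ± 0.0861% in T47D, and outside them the annexin ratio was 1.12 and the S100 ratio 1.79. Without T47D-TR replicate 3 the log2 difference of the S100 share was 0.71, against 0.78 with it, and that of the annexin share 0.07, against 0.11.

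**Figure D3:**
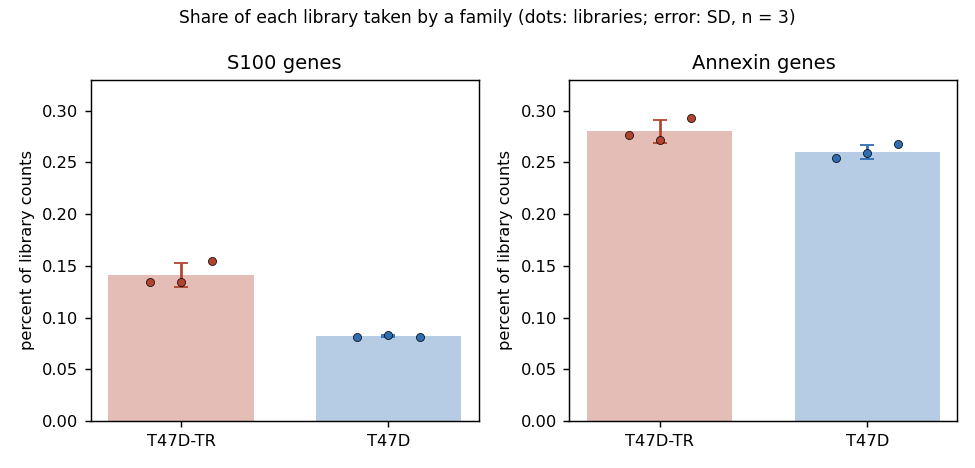
Percent of each library's counts that fell on S100 genes (left) and annexin genes (right), T47D-TR left of T47D, with dots for libraries, bars for means and error bars for SD (n = 3). The S100 share averaged 0.141% in T47D-TR and 0.0820% in T47D, and the annexin share 0.280% in T47D-TR and 0.260% in T47D.

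Levels of different genes were set side by side only per kilobase of merged exons (GENCODE 29, which may not be the annotation the reads were counted on). On this scale ANXA2 led with 703 ± 37.5 CPM per kilobase in T47D-TR and 701 ± 25.4 in T47D. S100A11 came next in both groups, at 647 ± 71.2 in T47D-TR and at 355 ± 8.29 in T47D. In T47D-TR libraries 1 to 3 it had 610, 602 and 729, below ANXA2 in each (702, 666 and 741), although the ranges overlapped. S100A6 and ANXA1 followed, at 289 ± 38.0 and 231 ± 15.1 CPM per kilobase in T47D-TR and at 194 ± 9.59 and 195 ± 7.27 in T47D, where they did not differ beyond their spread. S100A16 and S100A10 were alike in T47D-TR, at 168 ± 12.1 and 169 ± 5.15 CPM per kilobase, and apart in T47D, at 81.5 ± 2.16 and 101 ± 0.999. Known partners shifted relative to each other within libraries, a measure that needs no scaling between libraries. The ratio of S100A10 to ANXA2 counts was 0.157, 0.168 and 0.157 in T47D-TR and 0.0984, 0.0962 and 0.0928 in T47D, a log2 difference of 0.75. The ratio of S100A11 to ANXA1 counts was 0.709, 0.646 and 0.744 in T47D-TR and 0.465, 0.461 and 0.440 in T47D (log2 difference 0.62), and that of S100A6 to ANXA11 counts was 1.57, 1.49 and 1.78 in T47D-TR and 1.14, 1.26 and 1.204 in T47D (log2 difference 0.42). Without T47D-TR replicate 3 these log2 differences were 0.76, 0.57 and 0.35, in the same order. In all 3 partner ratios every T47D-TR library lay above every T47D library. Each had an exact 2-sided permutation p = 0.1, the smallest possible, and 0.167 after adjustment over the 5 ratios computed.

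**Figure D4:**
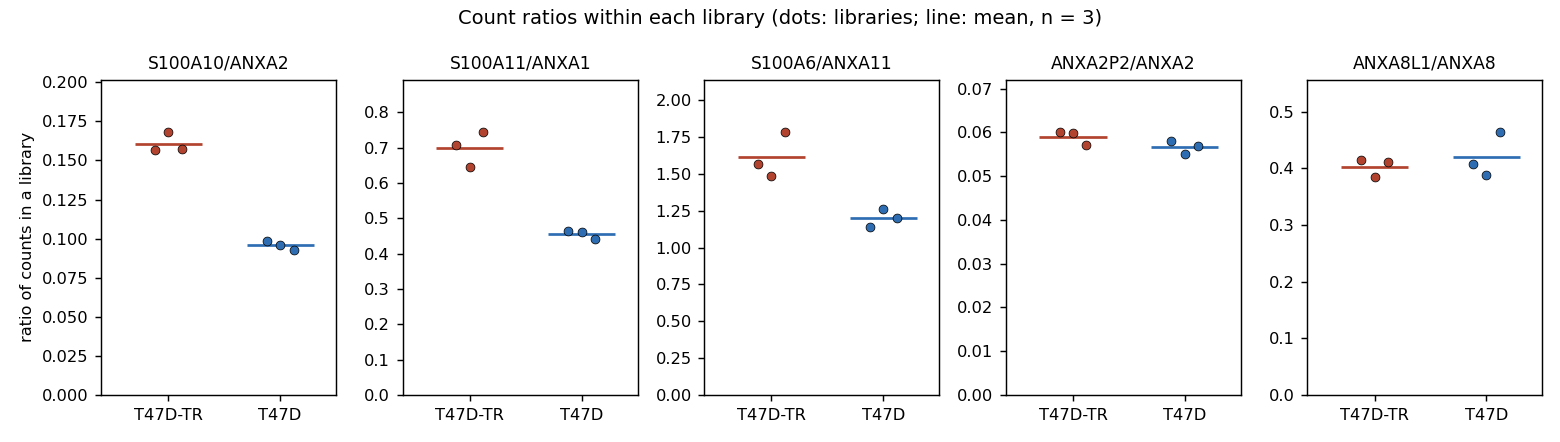
Ratio of the counts of paired genes within each library, T47D-TR left of T47D, with dots for libraries and lines for means (n = 3). The 3 partner ratios on the left are higher in T47D-TR (S100A10 to ANXA2 averaged 0.161 in T47D-TR and 0.0958 in T47D), and the copy ratios on the right overlap between the groups.

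Of the S100 genes, 11 lie in a cluster of 277 kilobases on chromosome 1, from 153357854 to 153634361, and 10 of these were tested. Within it 8 rose and 0 fell (edgeR; S100A2 had an unadjusted p = 0.0562 and S100A1 of 0.854, 0 fell with DESeq2, and S100A2 was called lower with limma's voom and quantile normalization), and S100A9 and S100A5 of the 8 met the filter only through T47D-TR. Of all 15961 tested genes 32.5% rose and 30.5% fell. The 1 other tested gene placed in the cluster, LOC101928034, rose by 0.85, with S100A3 wholly inside it and 65 bases shared with S100A4. Of the nearest 10 tested genes on either side that are not members, 4 of the 20 rose, 10 fell and 6 stayed uncalled (median log2 fold change -0.21). Among those that rose was TUFT1, the tuftelin gene, at 0.61. The largest falls were in CGN, which encodes the tight-junction protein cingulin, at -0.62, and in the antizyme gene OAZ3 at -0.51. The neighbours before the cluster end 1448 to 1956 kilobases from it, and S100A10 and S100A11, which rose, lie in between, and S100P rose on another chromosome. No test of position was made.

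**Figure D5:**
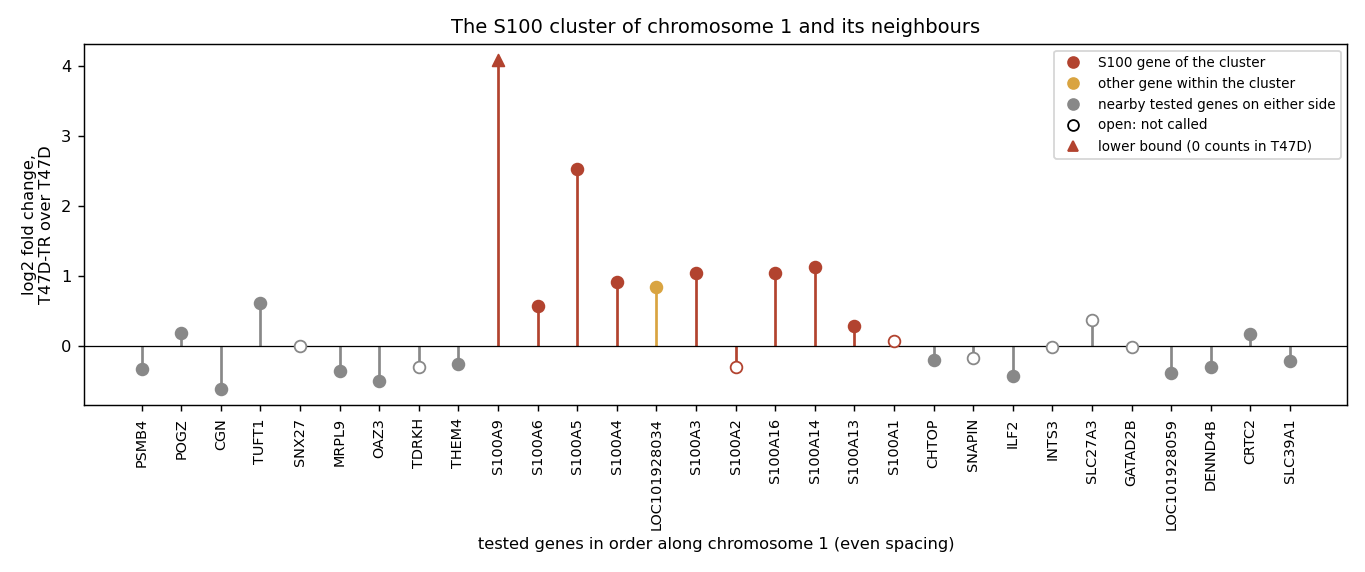
Log2 fold change of T47D-TR over T47D for tested genes in their order along chromosome 1, with S100 genes of the cluster in red, the other gene within it in yellow and nearby tested genes on either side that are not members in grey (S100A10 and S100A11, which lie between THEM4 and S100A9, are left out, and 1 of the 20 is not drawn); open circles were not called. S100 genes lie between -0.30 (S100A2) and the lower bound of S100A9, and the grey genes drawn between -0.62 (CGN) and 0.61 (TUFT1).

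Partners, receptors and effectors of the families moved both ways. Of 35 listed genes 28 were tested, of which 14 rose, 9 fell and 5 were not called (median log2 fold change 0.12, against 0.00 for all tested genes). The largest rises were in PLAT, the tissue plasminogen activator gene, with 39.4 ± 3.58 CPM in T47D-TR and 5.62 ± 0.838 CPM in T47D (log2 2.81, edgeR adjusted p = 6.47e-10), and in AHNAK2, a giant scaffold gene, with 349 ± 20.5 CPM in T47D-TR and 64.5 ± 2.22 CPM in T47D (log2 2.43, edgeR adjusted p = 8.21e-12). The largest falls were in GCA, which encodes the penta-EF-hand protein grancalcin, with 2 counts in T47D-TR and 63 in T47D over all libraries (ratio 0.0323, 95% exact interval 0.00383 to 0.122, counting error only), and in PEF1, another penta-EF-hand gene, at -0.83. Chosen after their values were seen, the urokinase gene PLAU and its receptor gene PLAUR rose by 1.66 and 0.97 beside PLAT. AHNAK, a scaffold bound by the S100A10 and ANXA2 complex, stood at 1878 ± 58.9 CPM in T47D-TR and 1642 ± 49.5 CPM in T47D. Among cell-surface receptors of S100 proteins, likewise chosen after their values were seen, TLR4 rose by 1.199, AGER by 0.48 and BSG by 0.43.

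The other calcium-binding lists had medians near that of all tested genes. Of 48 other EF-hand genes 35 were tested, of which 12 rose, 15 fell and 8 were not called (median -0.09). CALB2, the calretinin gene, rose most, with 12.2 ± 3.65 CPM in T47D-TR and 0.899 ± 0.113 CPM in T47D (log2 3.77, edgeR adjusted p = 1.13e-07), followed by the store-operated calcium sensor gene STIM1 at 1.27. GCA, which like PEF1 stands in this list and the one before, and the mitochondrial EF-hand gene EFHD1 (-2.91) fell most. Of 27 C2-domain and membrane repair genes 19 were tested, of which 5 rose, 6 fell and 8 were not called (median -0.00). Here CPNE1, a copine gene, and EHD2, a caveolar ATPase gene, rose most, at 0.79 and 0.56, and ESYT3, an extended synaptotagmin gene, and CPNE3 fell most, at -1.79 and -0.43. The lists are not of equal size and no test compared them with the S100 and annexin members.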

How the data were processed

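The deposited table holds whole-number read counts per gene for 6 libraries (3 T47D-TR, 3 T47D), although its name says FPKM. The submitters' processing notes name HISAT2 2.1.0, GRCh38 and DESeq. Counting tool, strand setting, annotation: not given in the sources used here. Also deposited by the authors were a normalized mean signal per group, its linear ratio, the log2 of that ratio and a p-value with a false discovery rate. The last is used only for 1 count of calls.

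Libraries were grouped by title. Counts were fitted with edgeR 4.0.16 (R 4.3.3; TMM, filterByExpr with minimum count 10 and minimum total 15, glmQLFit, glmQLFTest, adjusted p under 0.05, 2-sided), across all 15961 tested genes. CPM uses TMM-scaled library sizes, and 3 counts correspond to 0.153 to 0.178 CPM in a library. SE comes from log2 CPM by library (prior count 2). Genes at 0 in a group are bounded by a floor of 3 counts over the group. Intervals and floors cover counting error only. Alternatives were median-of-ratios factors, library size alone, limma 3.58.1 voom with quantile normalization, DESeq2 1.42.0, no filter, a replicate block and leaving out each library. The procedure was tested on simulated data. Positions and promoters are RefSeq's GRCh38.p14. Members, lists and tests were chosen with earlier results of these data known. Every member is named. Of each other list and of the genes around the cluster, the 2 largest called changes each way are named, with exceptions stated (the neighbours exclude members); some genes in these lists are not reported here.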

Additional observations from a re-analysis of the deposited data

How the results depend on the processing

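The count of tested members called was 21 to 24 in the 6 alternatives on all libraries and 21 to 23 when a library was left out, and the count called higher was 19 to 21 and 20 to 20. The count called lower was 2 to 3 and, when a library was left out, 1 to 3. Over all tested genes 9118 to 10514 were called, and 9047 to 10665 when a library was left out. Among the members' fold changes, those that changed sign belonged to ANXA2 and S100A1, neither of them called with all libraries. ANXA2 went to -0.00084 with median-of-ratios factors, -0.034 with library size alone and -0.0023 with DESeq2, and lay at -0.035 to 0.043 when a library was left out. S100A1 was at -0.17 with voom and quantile normalization and at -0.10 to 0.30 when a library was left out. The log2 difference of the ANXA8L1 to ANXA8 ratio was -0.11 to 0.017 when a library was left out. The cause of these changes was not tested. With non-mitochondrial counts the log2 difference of the annexin share was 0.17, against 0.11, and that of the S100 share 0.84, against 0.78. Both shifts follow from the denominator, which loses the mitochondrially encoded 10.3% of counts in T47D-TR and 6.40% in T47D. With voom and quantile normalization S100A2 was called lower (-0.54, limma adjusted p = 0.0058), and 43.0% of all calls were higher, against 51.6%. Same-numbered libraries did not deviate together (r = -0.0208 to -0.00512 across genes). With 3 libraries a group, these values cannot tell whether the numbers pair the samples. With the replicate block 22 members and 9954 genes were called. Depth limits S100A1, S100A5, S100A8, S100A9, ANXA2R and ANXA2P1, which lie under 1 CPM in both groups.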
